A study of Mus musculus with 102 samples.

Results

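The 82053 H3K4me1 peaks listed for R1 mouse embryonic stem (ES) cells were compared between cells with catalytically inactive MLL3 and MLL4 (the MLL3/4 double catalytic dead line, dCD, here catalytic-dead cells) and wild-type cells. Every listed peak was used, and they are 82053 of the 170107 peaks that the tables of R1 cells hold for H3K4me1, H3K4me2 and H3K4me3. The labels give 2 H3K4me1 libraries and 2 input libraries for the catalytic-dead line, and 2 and 2 for the wild type. All come from the R1 ES cell line of strain 129SV, grown on feeder cells without serum and with leukemia inhibitory factor, and all H3K4me1 libraries were made with the antibody ab8895 (Abcam) from chromatin sheared to 300 to 500 bp. The labels do not say whether the catalytic-dead line is 1 clone or several, or whether the feeder cells were removed before crosslinking.

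H3K4me1 is monomethylation of histone H3 at lysine 4, the mark best known from enhancers, the regulatory elements away from gene starts. MLL3 (KMT2C) and MLL4 (KMT2D) are the methyltransferases that place most of it at enhancers, and in the catalytic-dead line the proteins are present without their enzymatic activity. At active promoters the first nucleosomes carry H3K4me3, placed largely by the SET1A/B and MLL1/2 complexes, and H3K4me1 lies on the flanks. The comparison asks where in the genome H3K4me1 depends on the catalytic activity of MLL3/4.

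The deposited value of a peak is a fold enrichment (FE), with 1 value for each line, so the spread between the 2 libraries of a line and the read depth are unknown. No test between the lines could be made, a peak was called lower or higher from a 2-fold difference alone, and the quartiles given below are the spread over peaks. The score values were out of step with the positions and were first put back by chromosome. After this, width and wild-type FE of the peaks had a mean Spearman's rho of 0.253 over chromosomes 2 to 19 (from 0.189 to 0.315). It was 0.0403 and 0.0356 when the values of each chromosome were moved by 1 row up or down, 0.00253 as deposited, and 0.215 on chromosome 1, where the orders coincide. On chromosome X, where they also coincide, it was -0.00637. Every result below that ties a value to a position rests on this order. Positions are those of the deposited table in the mm9 build, and whether starts count from 0 or 1 is not stated there.

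Over all peaks the median FE was 2.73 in catalytic-dead cells (quartiles 1.44 and 4.13) and 2.94 in wild-type cells (2.56 and 3.32). The catalytic-dead values were therefore spread more widely, with an SD over peaks of 1.67 against 0.627 in wild type. They ran from 0.0487 to 10.4, and those of wild-type cells from 0.437 to 6.14. The log2 ratio, catalytic-dead to wild-type FE, had a median of -0.21 over all peaks, and class medians are given below also relative to it where the scale between the lines matters. A decrease of 2-fold or more in catalytic-dead cells was found at 28.4% of all peaks and an increase of that size at 15.2%, and these are the shares against which each class below is read. Of the lower peaks 92.8% were distal and 4.40% overlapped an H3K4me3 peak. Of the higher peaks 26.1% were distal and 91.6% overlapped one.

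The table lists few positions that were low in both lines. The higher value of both lines was above 2.45 at all but 1% of the peaks. Of the 6444 peaks with a wild-type FE of 2 or less, all but 1% had a catalytic-dead FE above 2.55, and of the 30502 peaks with a catalytic-dead FE of 2 or less, all but 1% had a wild-type FE above 2.38. A listed peak that was low in 1 line was thus nearly always higher in the other, and how the list was made is not stated. This touches each result below that orders peaks by the wild-type level, and the narrow range of wild-type values among peaks that were low in catalytic-dead cells. It also touches the shares and medians of lower and higher peaks in every class. Among peaks with a wild-type FE of at least 2.5, 15.8% of proximal peaks were at least 2-fold higher, against 37.3% of all proximal peaks. Their median log2 ratio was 0.47, against 0.84. The catalytic-dead FE was below 1 at 11255 peaks (13.7%), and the wild-type FE at 97.

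**Figure D1:**
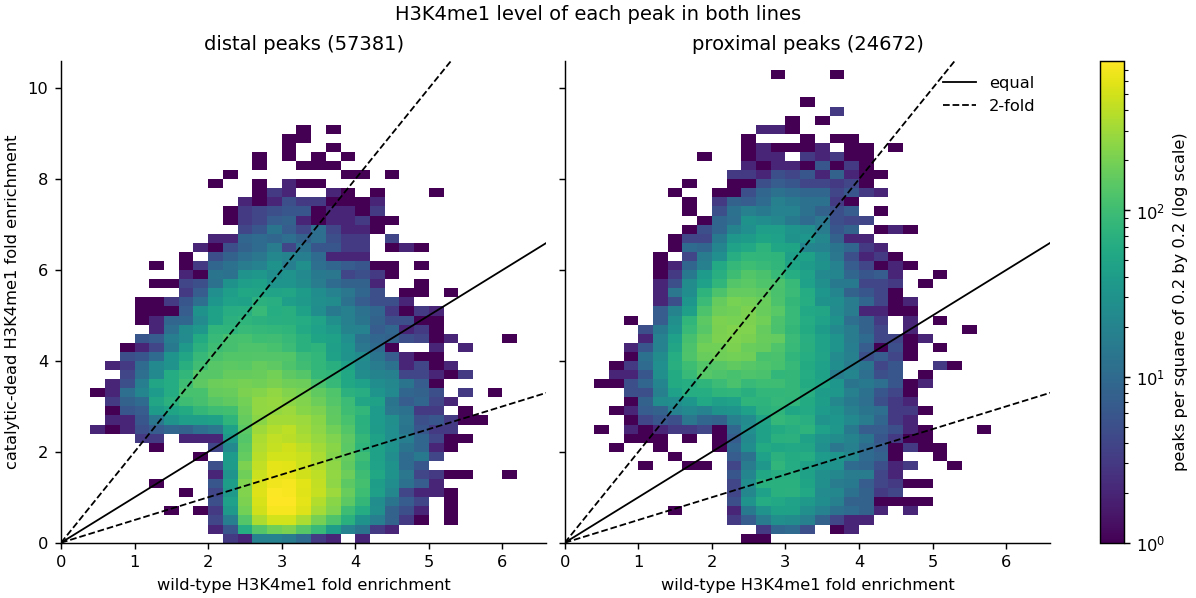
Catalytic-dead FE (vertical) against wild-type FE (horizontal) of 57381 distal and 24672 proximal peaks, as the number of peaks in each square of FE, on a log colour scale; solid line equal values, dashed lines 2-fold differences. Most distal peaks lie below the solid line near a wild-type FE of 3, most proximal peaks above it, and the corner where both lines are low is nearly empty.

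Distal peaks, 69.9% of the table, had a median FE of 2.04 in catalytic-dead cells and 3.04 in wild-type cells. Relative to all peaks their log2 ratio was -0.44. Proximal peaks had a median FE of 4.38 in catalytic-dead cells and 2.64 in wild-type cells, 1.04 above all peaks on the log2 scale. The density plot shows that the groups were not uniform: a distal arm reached above equality and a proximal arm below it. With the catalytic-dead values quantile-normalized to the wild-type values, which takes away the wider spread, 3.16% of distal peaks were at least 2-fold lower and 6.45% of proximal peaks at least 2-fold higher, against 37.7% and 37.3% on the deposited scale.

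Whether a peak also carried H3K4me3 made a larger difference to these medians than whether it was distal or proximal. H3K4me3 overlapped 30.0% of distal and 83.3% of proximal peaks, at 1 bp or more. Distal peaks without H3K4me3 had a median FE of 1.53 in catalytic-dead cells and 3.04 in wild-type cells, a log2 ratio of -1.04 (40169 peaks). Proximal peaks without it had 1.92 in catalytic-dead and 2.97 in wild-type cells, a log2 ratio of -0.70 (4112 peaks). With H3K4me3, distal peaks had 3.61 in catalytic-dead and 3.02 in wild-type cells, a log2 ratio of 0.30 (17212 peaks). Proximal peaks with H3K4me3 had 4.65 in catalytic-dead and 2.56 in wild-type cells, a log2 ratio of 0.93 (20560 peaks). The median H3K4me1 FE was thus lower in catalytic-dead cells where no H3K4me3 peak was listed and higher where one was, in both groups. No absolute scale shared by the 2 lines is given, so lower and higher hold for the FE alone and not for the amount of the mark. The 4 medians kept their signs after quantile normalization, at -0.30 without and 0.083 with H3K4me3 for distal peaks and at -0.17 without and 0.50 with it for proximal peaks. Among peaks with a wild-type FE of at least 2.5 the distal median with H3K4me3 was 0.072. With an overlap counted only from 50% of the H3K4me1 peak, proximal peaks without H3K4me3 had -0.15, which was above the median of all peaks, -0.21. In the deposited order of the values the medians with H3K4me3 were -0.13 at distal and -0.07 at proximal peaks.

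H3K4me2, the dimethylated state, marked an intermediate class. Distal peaks with neither mark had a median FE of 1.32 in catalytic-dead cells (quartiles 0.867 and 2.00) and 2.98 in wild-type cells (2.73 and 3.26), and 58.8% were at least 2-fold lower. With H3K4me2 alone the distal medians were 2.00 in catalytic-dead and 3.20 in wild-type cells, and 38.4% were lower. With H3K4me2 and H3K4me3 5.20% were lower and 13.9% higher, against 28.4% and 15.2% of all peaks. Proximal peaks with neither mark had 1.58 in catalytic-dead and 2.91 in wild-type cells, and 47.1% were lower. With H3K4me2 alone they had 2.48 in catalytic-dead and 3.07 in wild-type cells, and 22.9% were lower. With both marks 0.589% were lower and 43.8% higher. Peaks with H3K4me3 and no H3K4me2 were rare, 52 distal and 13 proximal.

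**Figure D2:**
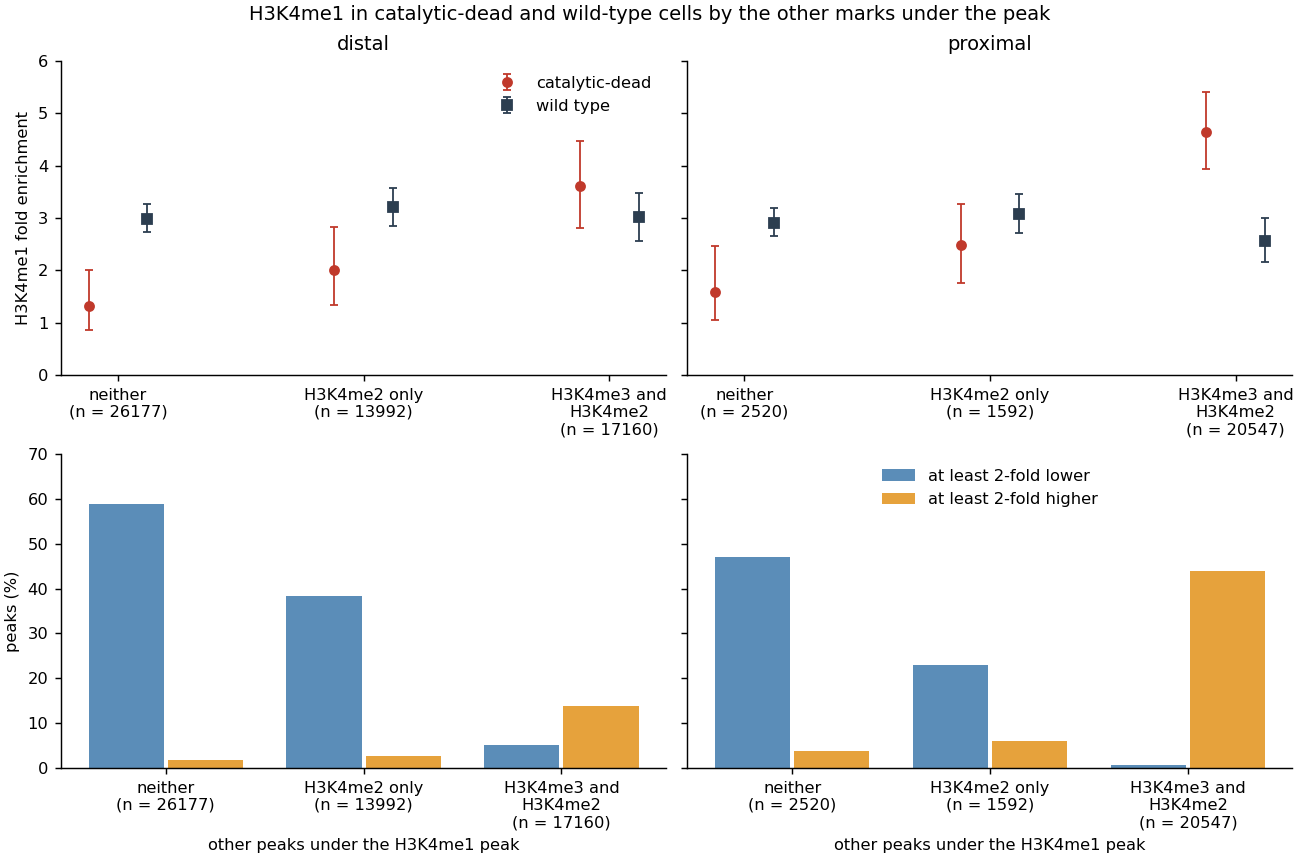
Upper panels: median FE with quartiles over peaks in catalytic-dead cells (circles) and wild-type cells (squares), for distal and proximal H3K4me1 peaks with neither other mark, with H3K4me2 alone and with both. Lower panels: percent of peaks lower (left bars) and higher (right bars) by 2-fold or more in catalytic-dead cells. The catalytic-dead medians go from 1.32 to 3.61 across the distal classes and from 1.58 to 4.65 across the proximal ones, while the wild-type medians stay between 2.56 and 3.20.

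The signs of these class medians held on each of 20 chromosomes (1 to 19 and X): above 0 with H3K4me3 and below 0 without it, in both groups. Over the 19 autosomes the log2 ratio ranged from 0.19 to 0.51 for distal peaks with H3K4me3, from 0.84 to 1.03 for proximal peaks with it, from -1.17 to -0.94 for distal peaks without it and from -0.96 to -0.45 for proximal peaks without it. Chromosome X lay outside 3 of these ranges. Its log2 ratios were 0.64 at 234 distal peaks with H3K4me3, 1.13 at 635 proximal peaks with it and -1.43 at 290 distal peaks without it. In the last class the median FE on X was 1.23 in catalytic-dead cells, below the autosomal 1.42 to 1.65. At proximal peaks with H3K4me3 it was 4.54 in catalytic-dead and 2.15 in wild-type cells, the wild-type value below the autosomal 2.41 to 2.68. X also had 1188 peaks in all, against 2455 to 6526 on an autosome, and 55.9% of them were proximal, against 23.9% to 36.0%.

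Among peaks with H3K4me3, the H3K4me1 difference went with how strong the H3K4me3 peak was. Distal peaks were ranked by the wild-type FE of the H3K4me3 peak they overlapped. In the lowest quintile (H3K4me3 FE up to 3.40) H3K4me1 was 2.91 in catalytic-dead and 3.22 in wild-type cells, and in the highest quintile (from 11.5) it was 4.72 in catalytic-dead and 2.74 in wild-type cells. The log2 ratio was -0.20, -0.04, 0.18, 0.50 and 0.84 from the lowest to the highest quintile. Relative to all peaks these were 0.00, 0.17, 0.39, 0.71 and 1.05, so the sign of the lower ones depends on the scale. Proximal peaks had log2 ratios of 0.50, 0.89, 0.99, 1.03 and 1.07. Across the 17212 distal peaks Spearman's rho of the H3K4me3 level in wild type was 0.53 with catalytic-dead H3K4me1 and -0.22 with wild-type H3K4me1, and across the 20560 proximal peaks 0.25 and -0.28. These coefficients describe peaks that share the H3K4me3 libraries and, in part, the same H3K4me3 peak.

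The share of the H3K4me1 peak that lay under H3K4me3 ordered the peaks in the same direction. Distal peaks with up to 35.3% of their length under H3K4me3 had 2.68 in catalytic-dead and 3.34 in wild-type cells, a log2 ratio of -0.38. Those with 77.0% or more had 4.10 in catalytic-dead and 2.77 in wild-type cells, a log2 ratio of 0.68. Proximal peaks had log2 ratios of 0.64 in the lowest quintile and 1.03 in the highest. The distal peaks with the smallest share under H3K4me3 were also the widest, with a median width of 3802 bp against 1619 bp in the highest quintile.

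Many proximal H3K4me1 peaks came in pairs with an H3K4me3 peak reaching from one to the other. In 5432 pairs of consecutive proximal peaks, 1 H3K4me3 peak reached across the gap between them, which had a median of 464.5 bp. The 10752 peaks of these pairs had a median FE of 4.80 in catalytic-dead and 2.44 in wild-type cells, a log2 ratio of 1.03. The 9809 proximal peaks with H3K4me3 that were in no such pair had 4.48 in catalytic-dead and 2.70 in wild-type cells, a log2 ratio of 0.81. Both peaks were above equality in 93.3% of the pairs, both at least 2-fold higher in 31.4%, and at least 1 of them 2-fold lower in 0.534%. The listing limits these shares. Nearly all peaks with a wild-type FE of 2 or less were listed with a catalytic-dead FE above 2.55, so they could hardly lie below equality. Within a pair the log2 ratios of the 2 flanks were only loosely tied, with a rho of 0.19.

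Peaks without H3K4me3 were then ordered by the distance to the nearest H3K4me3 peak. The median catalytic-dead FE of distal peaks was 1.87 within 1 kb, 1.74 at 1 to 5 kb, 1.62 at 5 to 20 kb, 1.42 at 20 to 50 kb, 1.21 at 50 to 100 kb and 0.860 beyond 100 kb. The wild-type median was between 3.01 and 3.08 in all 6 classes. The share of peaks at least 2-fold lower was 40.5% in the nearest class and 80.3% in the farthest, against 28.4% of all peaks. Beyond 100 kb the median catalytic-dead FE was thus below 1. The wild-type median of these peaks has a lower bound from the listing, since nearly all peaks that were low in catalytic-dead cells had a wild-type FE above 2.38. Proximal peaks without H3K4me3 showed a similar order, with 2.09 in catalytic-dead and 2.87 in wild-type cells within 1 kb, and 1.31 in catalytic-dead and 3.05 in wild-type cells beyond 100 kb, where 86 peaks were found.

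**Figure D3:**
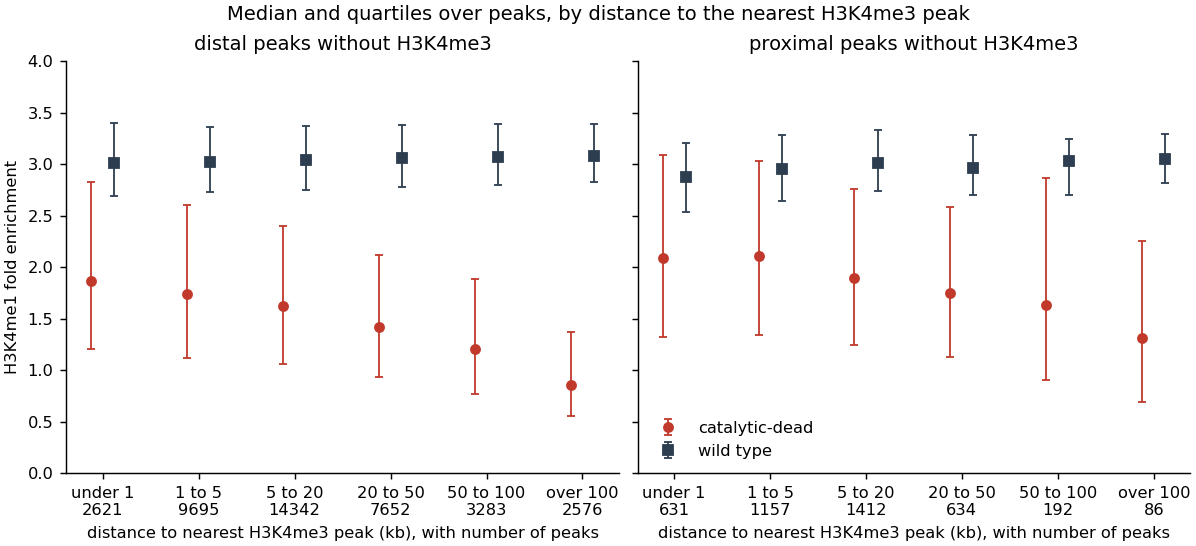
Median FE with quartiles over peaks in catalytic-dead cells (circles) and wild-type cells (squares), for peaks without H3K4me3, in 6 classes of distance to the nearest H3K4me3 peak, with the number of peaks under each class. The distal catalytic-dead medians go from 1.87 in the nearest class to 0.860 in the farthest, while the wild-type medians lie between 3.01 and 3.08.

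The relation to distance was present in other cuts of the distal peaks without H3K4me3. With peaks that overlapped H3K4me2 left out, the catalytic-dead median was 1.68 within 1 kb and 0.793 beyond 100 kb. In the narrowest, middle and widest tercile of width it was 1.89, 1.84 and 1.90 within 1 kb, and 0.819, 0.827 and 0.967 beyond 100 kb. Among peaks within 1 kb of another H3K4me1 peak it was 1.89 near H3K4me3 and 0.723 beyond 100 kb, and among those more than 20 kb from any other it was 1.35 (30 peaks) and 0.872. In that last class the order was not steady, with 0.968 at 1 to 5 kb (46 peaks) and 1.27 at 5 to 20 kb. On all 20 chromosomes the catalytic-dead median was lower beyond 50 kb than within 5 kb. The autosomal medians ran from 0.911 to 1.40 in the far class and from 1.64 to 1.97 in the near class. The wild-type median was lower in the far class on 2 chromosomes. Over all chromosomes the catalytic-dead median beyond 50 kb minus that within 5 kb was -0.72. This difference was -0.38 with the 25% of peaks of lowest mean left out and -0.40 after quantile normalization.

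The H3K4me2 peaks of the same cells did not show this gradient in the median over most of the range. Distal H3K4me2 peaks without H3K4me3 had a median FE of 1.74, 1.80, 1.93, 1.91, 1.79 and 1.23 in catalytic-dead cells over the same 6 classes of distance, and 3.42 to 3.51 in wild-type cells. Up to 100 kb their catalytic-dead median therefore stayed between 1.74 and 1.93 without an order, where that of H3K4me1 went from 1.87 to 1.21. The difference between the marks was not tested.

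Width went with the H3K4me1 difference mainly at distal peaks. In quintiles of width the distal log2 ratio was -0.81, -0.85, -0.77, -0.66 and -0.24 from the narrowest (300 to 931 bp) to the widest (2782 to 42357 bp). The widest quintile had a median FE of 2.96 in catalytic-dead and 3.35 in wild-type cells, and the narrowest had 1.72 in catalytic-dead and 2.90 in wild-type cells. H3K4me3 overlap changed along the same axis, from 12.1% of the narrowest to 63.7% of the widest peaks. Among distal peaks with neither mark the log2 ratio was -1.07, -1.21, -1.27, -1.27 and -1.19 over quintiles of width. Among those with H3K4me2 alone the order was turned, from -0.34 in the narrowest to -0.93 in the widest. Among those with both marks it was also turned, from 0.51 to 0.18. So in none of these 3 classes did the widest distal peaks have the highest ratio, although they did in the group as a whole. Without the 25% of peaks that had the lowest mean over both lines, the widest distal quintile was only 0.02 above the narrowest on the log2 scale, against 0.57 with them. At proximal peaks the log2 ratios were 0.78, 0.86, 0.92, 0.91 and 0.68, lowest in the widest quintile.

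Spacing made a smaller difference. The gap to the nearest other H3K4me1 peak had a median of 1633 bp at distal and 690 bp at proximal peaks, and no gap was under 51 bp. Distal peaks in the quintile with the shortest gaps (51 to 267 bp) had 2.23 in catalytic-dead and 3.12 in wild-type cells, and those in the quintile with the longest (from 8222 bp) had 1.65 in catalytic-dead and 2.97 in wild-type cells. Their log2 ratios were -0.57 and -0.92, with 33.7% and 47.7% at least 2-fold lower. H3K4me3 overlapped 35.8% and 22.9% of them. The distal difference, -0.35 for the longest minus the shortest gaps, turned to 0.15 when the 25% of peaks with the lowest mean over both lines were left out. Across all distal peaks rho of the gap with the log2 ratio was -0.08, with -0.09 among those without H3K4me3 and 0.16 among the 17212 with it. Proximal log2 ratios were 0.76, 0.91, 0.96, 0.64 and 0.84 over the quintiles, highest for gaps of 517 to 971 bp, where 91.5% overlapped H3K4me3.

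The catalytic-dead level was only weakly tied to the wild-type level, with a Spearman's rho of -0.21 across distal and -0.15 across proximal peaks, both of which include the effect of the listing. In quintiles of wild-type FE, the median catalytic-dead FE of distal peaks was 3.33, 1.77, 1.66, 1.75 and 2.01 from the lowest to the highest. The first value belongs to peaks with a wild-type FE under 2.63. From the second to the highest quintile the wild-type median went from 2.79 to 3.77, while the catalytic-dead median stayed between 1.66 and 2.01. Proximal peaks had catalytic-dead medians of 4.32, 4.71, 4.64, 4.14 and 3.71 for wild-type medians of 1.86, 2.31, 2.64, 2.97 and 3.47. Among distal peaks with neither other mark, the second to the highest quintile of wild-type FE had catalytic-dead medians of 1.29, 1.22, 1.20 and 1.24, for wild-type medians of 2.78, 2.98, 3.19 and 3.55.

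**Figure D4:**
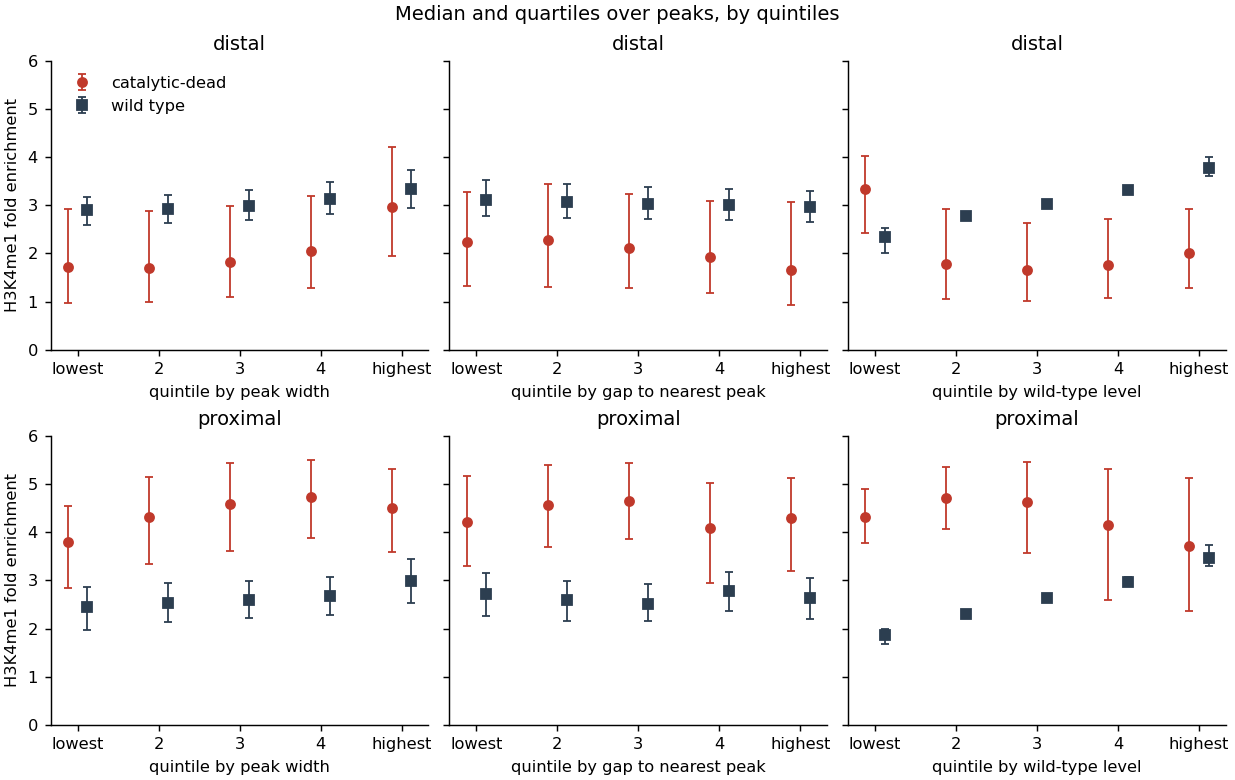
Median FE with quartiles over peaks in catalytic-dead cells (circles) and wild-type cells (squares), in quintiles of peak width, of the gap to the nearest H3K4me1 peak and of the wild-type FE, for distal peaks (upper row) and proximal peaks (lower row). The catalytic-dead medians lie above the wild-type ones in each proximal quintile and below them in each distal one, apart from the lowest distal quintile of wild-type level (3.33 in catalytic-dead and 2.35 in wild-type cells).

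Neighbouring distal peaks resembled each other more in their difference than in their wild-type level. Between consecutive distal peaks up to 500 bp apart (8645 pairs) Spearman's rho was 0.65 for the log2 ratio, 0.60 for the catalytic-dead FE and 0.29 for the wild-type FE. At 5 to 10 kb it was 0.25, 0.22 and 0.10, and beyond 100 kb 0.13, 0.13 and 0.01. Between consecutive proximal peaks up to 500 bp apart rho was 0.41 for the log2 ratio, 0.22 for the catalytic-dead FE and 0.35 for the wild-type FE. Beyond 100 kb it was 0.13, 0.019 and 0.20, so there the wild-type level was the most alike. Where a distal and a proximal peak were neighbours, rho of the distal against the proximal log2 ratio was 0.54 within 500 bp (2858 pairs), 0.15 at 2 to 5 kb (3895 pairs) and -0.0029 beyond 100 kb (1779 pairs). For the wild-type FE of these pairs rho was 0.33, 0.16 and 0.031. All pairs share the same libraries, and adjacent peaks can be parts of 1 enriched stretch.

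**Figure D5:**
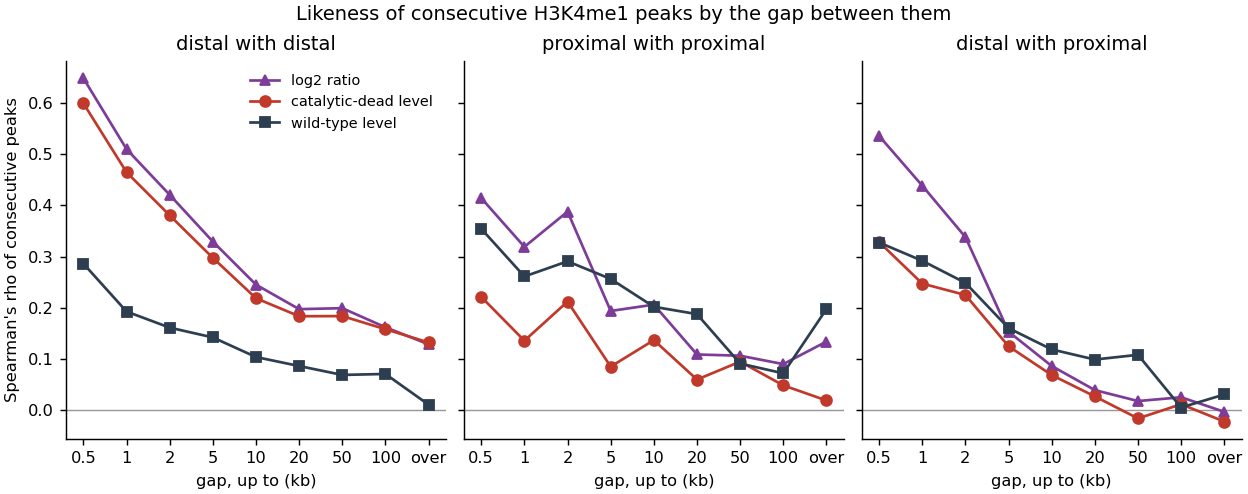
Spearman's rho between consecutive H3K4me1 peaks against the gap between them (upper limit of each class in kb; the last point is beyond 100 kb), for the log2 ratio, the catalytic-dead FE and the wild-type FE. For the log2 ratio the correlation goes from 0.65 to 0.13 for pairs of distal peaks, from 0.41 to 0.13 for pairs of proximal peaks and from 0.54 to -0.0029 for a distal against a proximal peak.

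Peaks that were lower also stood in runs. Of the 21661 distal peaks at least 2-fold lower, 42.9% stood in runs of 3 or more such peaks with no other H3K4me1 peak between them. Since 37.7% of all distal peaks were lower, such runs also arise where neighbours are independent. The share to be found then was not computed. The longest run held 18 peaks over 91.9 kb of chromosome 1 (chr1:77403748-77495677). Its FE values had a lowest, median and highest of 0.467, 0.931 and 1.87 in catalytic-dead cells and of 2.48, 3.09 and 4.43 in wild-type cells. Each of these peaks was in the run because it was at least 2-fold lower. In that stretch 2 of the 18 peaks overlapped H3K4me3 and 8 overlapped H3K4me2. Of all distal peaks at least 2-fold lower, 4.17% overlapped H3K4me3 and 28.9% H3K4me2. Of the 9198 proximal peaks at least 2-fold higher, which were 37.3% of all proximal peaks, 19.4% stood in runs of 3 or more. Their longest runs held 9 peaks, of which there were 3. In the run on chromosome 2 (chr2:122292420-122591829) the FE had a lowest, median and highest of 3.35, 4.94 and 6.19 in catalytic-dead cells and of 0.976, 1.76 and 2.65 in wild-type cells. All 9 peaks overlapped H3K4me3, as did 97.9% of all proximal peaks at least 2-fold higher.

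Single peaks were named by their rank among the 64454 peaks of at least 1000 bp with an FE of 2 or more in at least 1 line. Their values are descriptions of the extremes. The lowest ratio was that of a distal peak on chromosome 6 (chr6:20637683-20638927), with an FE of 0.0832 in catalytic-dead and 3.68 in wild-type cells, a log2 ratio of -5.47. It lay 525052 bp from the nearest H3K4me3 peak, and the H3K4me2 peak over it had 0.330 in catalytic-dead and 6.09 in wild-type cells. The next 4 distal peaks were chr11:7432743-7433809, chr16:4568910-4569917, chr14:16869126-16870415 and chr12:90511131-90512252, with log2 ratios of -5.28, -4.50, -4.49 and -4.38. Their catalytic-dead FE was 0.0821, 0.183, 0.153 and 0.136, and none of the 5 overlapped H3K4me3. H3K4me3 overlapped 30.0% of all distal peaks and 4.17% of those at least 2-fold lower. The wild-type FE of the 5 was 2.83 to 4.15, where all distal peaks had quartiles of 2.72 and 3.40. With 1 added to both values the log2 ratios of the 5 were -2.12 to -1.75.

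The proximal peak with the highest ratio under these limits was chr8:69035468-69037489, with an FE of 4.29 in catalytic-dead and 0.841 in wild-type cells, a log2 ratio of 2.35. Its H3K4me3 peak was also higher, with 10.4 in catalytic-dead and 3.37 in wild-type cells. The next were chr2:122463098-122464199, chr2:119486947-119488012, chr13:113441848-113442902 and chr1:90101029-90103001, with log2 ratios of 2.34, 2.31, 2.29 and 2.22. All 5 overlapped H3K4me3 and H3K4me2. H3K4me3 overlapped 83.3% of all proximal peaks and 97.9% of those at least 2-fold higher. The wild-type FE of the 5 was 0.841 to 1.61, and nearly all peaks with a wild-type FE of 2 or less were listed with a catalytic-dead FE above 2.55. At chr2:119486947-119488012 H3K4me3 was close to equal, with 17.8 in catalytic-dead and 16.3 in wild-type cells, while H3K4me1 had 7.77 in catalytic-dead and 1.57 in wild-type cells.

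Some peaks went against their group. The distal peaks with the highest ratios were chrX:51056565-51057924, with an FE of 3.31 in catalytic-dead and 0.437 in wild-type cells, and chr5:58114878-58116525, with 3.58 in catalytic-dead and 0.611 in wild-type cells. The peak on chromosome 5 overlapped H3K4me3, and the one on X lay 444 bp from an H3K4me3 peak. The proximal peaks with the lowest ratios were chr7:149396487-149397573, with 0.160 in catalytic-dead and 2.58 in wild-type cells, and chr4:76239407-76240499, with 0.209 in catalytic-dead and 3.30 in wild-type cells. Neither overlapped H3K4me2 or H3K4me3, and they lay 71562 and 142167 bp from the nearest H3K4me3 peak. H3K4me3 overlapped 7.34% of all proximal peaks at least 2-fold lower.

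The highest levels were named among distal peaks for wild-type cells and among proximal peaks for catalytic-dead cells, so these lists cannot share a peak. The highest wild-type FE among distal peaks was at chr8:26654102-26655514, with 4.52 in catalytic-dead and 6.14 in wild-type cells, followed by chr13:72953103-72956402, with 1.54 in catalytic-dead and 6.04 in wild-type cells, and chr17:26737458-26741376, with 3.31 in catalytic-dead and 5.81 in wild-type cells. The highest catalytic-dead FE among proximal peaks was at chr8:87381111-87382795, with 10.4 in catalytic-dead and 2.94 in wild-type cells. At this peak H3K4me3 had 17.1 in catalytic-dead and 16.5 in wild-type cells. The widest distal peak, 42357 bp on chromosome 8 (chr8:123047787-123090144), had 3.68 in catalytic-dead and 4.34 in wild-type cells. The widest proximal peak, 21075 bp on chromosome 7 (chr7:119824298-119845373), had 5.05 in catalytic-dead and 4.70 in wild-type cells. The single widest peak of each group thus stood close to equality. The widest quintile as a whole had a median log2 ratio of -0.24 at distal and 0.68 at proximal peaks.

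Regions read as mapped in 129/Ola ES cells, another ES cell line of the study, gave further properties of 57081 of the peaks (69.6%), with the positions of both in mm9. Of the distal peaks without H3K4me3 in R1 cells, those on no listed region had 1.37 in catalytic-dead and 2.93 in wild-type cells, and those on a region listed for H3K4me1 in 129/Ola cells had 1.66 in catalytic-dead and 3.16 in wild-type cells. The peaks listed for H3K4me1 had no steady order by acetylation of H3 lysine 27 (H3K27ac), a mark of active enhancers. Their log2 ratio was -1.04 without listed H3K27ac, -0.83 with a log2 enrichment below 1 and -0.97 with 1 or more. The log2 ratio was -1.07 for peaks with none of 17 chromatin proteins listed, -1.03 with 1 to 3, -0.94 with 4 to 8 and -0.78 with 9 to 17. By single protein it ranged from -0.99 for BAF155, a subunit of the BAF remodelling complex, and WSTF, a partner of the ISWI remodeller SNF2H, to -0.77 for SMC3, a core subunit of cohesin. At distal peaks with H3K4me3 the same classes of protein number had -0.27, -0.10, 0.17 and 0.48, or -0.06, 0.11, 0.37 and 0.69 relative to all peaks. The proteins share regions, and their listing is taken to be from 129/Ola cells, so these are properties of the sites and not measurements in the R1 lines.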

How the data were processed

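H3K4me1 ChIP-seq of R1 ES cells was analysed from tables deposited by the authors. The FE columns, named so in the file headers, hold a fold enrichment (ratio) per peak and line. The sources used here do not give the background of that ratio, the peak calling, the pooling of libraries or the distal or proximal rule. Per the submitters' processing notes, the tools were MACS2 2.1.0.20150731, BWA 0.7.13-r1126, deepTools 2.5.1 and 2.5.3 and Picard 2.11.0, in unstated roles, on build mm9. The deposited region table, which has no header, holds log2 enrichments, none below 0.585. It was read as that of 129/Ola cells, the line for which the labels hold all 17 proteins used. It names 31 marks and proteins, of which 17 proteins and the histone marks were used and 11 names were not.

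Values were put back on their chromosomes, since positions run in text order and values in number order. Catalytic-dead FE was divided by wild-type FE and put on the log2 scale with no pseudocount, as no value was 0. Classes were quintiles within the distal or proximal group, and overlaps were 1 bp or more. Python 3.11.15, numpy 2.4.6, pandas 2.3.3, scipy 1.17.1 and bedtools 2.31.1 were used, and the steps were tested on simulated data. With 1 value per line there was no replicate error, depth or test. The named peaks are the extremes of ratio, level, width and run length among listed peaks. Peaks, classes and rules were chosen with earlier results of these data known. The deposited class of change was not used. Gene names are not given, as the annotation at hand is of another build.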

Additional observations from a re-analysis of the deposited data

How the results depend on the processing

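No paired analysis was possible because each line has 1 value per peak, and for the same reason no library could be left out. Of 96 alternative values for 15 results, 92 kept their sign, but part of them could not change it. A share is never negative, and 1 added to both values keeps the sign of each log2 ratio. Median centring leaves the differences between quintiles as they are. A value counts here as moved if it left an interval around the reported value that was computed over peaks. Such an interval holds no error between libraries. Each list below gives, as far as the value moved, the median log2 ratio of distal and proximal peaks, the percent of distal peaks lower and of proximal peaks higher by at least 2-fold, the differences in median log2 ratio between the outer quintiles of width and of gap, and those in catalytic-dead FE between the outer quintiles of wild-type level. As reported, these are -0.65, 0.84, 37.7%, 37.3%, for width 0.57 distal and -0.10 proximal, for gap -0.35 distal and 0.08 proximal, and for wild-type level -1.32 distal and -0.61 proximal. With 1 added to both values they were -0.46, 0.64, 21.4%, 13.9%, width 0.38 and -0.053, and distal gap -0.22. With the 25% of peaks of lowest mean left out they were -0.18, 0.87, 15.9%, 39.5%, width 0.024 and -0.18, distal gap 0.15 (reversed), and wild-type level -1.49 and -0.48. After median centring they were -0.44, 1.04, 31.2% and 53.0%. On chromosomes 1 and X alone they were -0.77, 0.97, 43.1%, 47.6%, width 0.66 and -0.056, gap -0.14 and 0.20, and distal wild-type level -1.62. At 3-fold 20.4% of distal peaks were lower and 2.89% of proximal peaks higher. With deciles they were width 0.71 and -0.18, gap -0.44 and 0.29, and distal wild-type level -1.46. With peaks of 500 bp or more none of them moved. In the deposited order they were -0.25, -0.10 (reversed), 29.1%, 17.5%, distal width 0.042, gap -0.023 and 0.023, and wild-type level -1.88 and -2.01. Chosen after seeing the data were quantile normalization, which gave -0.20, 0.43, 3.16% and 6.45%, and a wild-type FE of 2.5 or more, which selects on the value below the ratio and gave -0.82, 0.47, 43.1% and 15.8%. Also chosen then were the alternatives for the classes by H3K4me3, whose reported medians are 0.30 distal with it, -1.04 distal without, 0.93 proximal with and -0.70 proximal without, and for the difference in catalytic-dead FE between distal peaks beyond 50 kb and within 5 kb of H3K4me3, -0.72. With those 25% left out they were 0.32, -0.52, 0.93, -0.30 and -0.38. After quantile normalization they were 0.083, -0.30, 0.50, -0.17 and -0.40. From a wild-type FE of 2.5 they were 0.072, -1.15, 0.68, -0.87 and -0.64. With an overlap of at least 50% of the peak the medians were 0.53, -0.89, 0.97 and -0.15. In the deposited order they were -0.13 (reversed), -0.30, -0.071 (reversed), -0.21 and -0.15. At an overlap of 50%, the distal peaks at least 2-fold lower that overlapped H3K4me3 made up 0.877% in place of 4.17%, and the proximal peaks at least 2-fold higher that did so 88.0% in place of 97.9%. Of the 22 named peaks, 11 changed sign in the deposited order, with log2 ratios of 0.47 on chromosome 11, -0.47, 0.73, -0.45 and 0.48 on chromosome 8, -0.78 on chromosome 2, -0.24 on chromosome 5, 1.58 on chromosome 7, 1.14 on chromosome 4, 1.33 on chromosome 17 and -0.31 on chromosome 16. The deposited order gives most peaks a value that is not theirs, provided that the restored order holds. Median centring changed the sign of none of the 22 named peaks, and 1 added to both values cannot change a sign. The depth behind the values is unknown.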
